A study of Danio rerio with 2 samples.

Results

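The axon guidance ligands and receptors described here are 95 of the 36351 genes in the annotation of a zebrafish single-cell RNA-seq series. They were taken by symbol alone: every semaphorin, plexin, neuropilin, Robo, Slit, ephrin, Eph receptor, netrin and Unc5 gene, plus dcc. The 95 genes comprise 12 class 3 semaphorins, 18 semaphorins of classes 4 to 7, 4 Slits, 5 netrins, 8 ephrin-As and 5 ephrin-Bs as ligands, and 11 plexins, 4 neuropilins, 4 Robos, 6 Dcc and Unc5 receptors, 9 EphAs and 8 EphBs as receptors. The remaining gene, unc50, matched by name only and encodes a Golgi membrane protein. A SEMA4F entry spelled in capitals did not match and is not a member.

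Guidance proteins steer growing axons by attraction and repulsion. Secreted class 3 semaphorins signal through complexes of neuropilins and plexin-As, Slits through Robo receptors, netrins through Dcc and Unc5 receptors, and membrane-bound ephrins through Eph receptors, often in both directions across a cell contact. In the spinal cord these systems govern whether and when axons cross the midline and where motor axons leave the cord. V0v interneurons are glutamatergic commissural neurons, so their axons meet several of these cues at the midline, and in vertebrates Robo3 is needed for commissural axons to cross.

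The cells were EGFP-positive cells sorted from the trunks of embryos at 48 h of development. All embryos carried Tg(evx1:EGFP)SU2, in which evx1 regulatory DNA drives EGFP in V0v cells and, variably, ectopically in notochord, and their parents were heterozygous for evx1 i232 and evx2 sa140. Embryos of every resulting evx1 evx2 genotype were pooled, no genotype is recorded for a cell, and the groups below are therefore defined by marker RNAs and are not mutant and wild-type samples. The titles of the 2 libraries, OtherGFP for library 1 and AllGFP for library 2, are not explained. The sources do not say whether these libraries came from separate embryo pools. The main fits took the library as a block. Their p-values therefore rest only on how group differences varied between these 2 libraries, pooled over groups and shared across genes. They are not known to cover the spread between embryo pools.

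Library 1 held 4373 cells and library 2 held 6223, of which 3571 and 4556 passed the cell filters with medians of 3669 and 4333.5 UMIs (unique molecules counted). Cells were grouped by UMIs of marker genes, none of which is a guidance gene. Motoneuron-like neurons carried at least 2 of 6 isl and mnx genes (18 and 54 cells in libraries 1 and 2). Other-fate inhibitory neurons carried en1b, dmrt3a, lbx1a or at least 2 of gata2a, gata3 and tal1 with an inhibitory transmitter gene and no hmx gene (62 and 177 cells). The hmx slc6a1b neurons carried hmx2 or hmx3a with slc6a1b, a GABA transporter gene (132 and 113 cells), and the hmx glycinergic neurons carried hmx2 or hmx3a with slc6a5, the glycine transporter gene, without slc6a1b (148 and 166 cells). The skor2 evx neurons carried evx1 or evx2, a vesicular glutamate transporter gene and skor2 (308 and 251 cells), and the skor2-negative evx neurons were the same without a skor2 UMI (301 and 390 cells). Missing UMIs also kept the groups apart. The evx groups had no UMI of slc6a5, slc6a1b, hmx2 or hmx3a. The hmx groups and the other-fate neurons had none of slc17a6a, slc17a6b or evx2. Motoneuron-like neurons had none of evx2, hmx2 or hmx3a and did not meet the other-fate gene rule. Other-fate neurons carried fewer than 2 isl and mnx genes. All neurons together numbered 2748 and 2634, and 1779 and 1483 of them fell in no group. Progenitor-like cells (119 and 176) and fibroblast-like cells (65 and 744) served as further references.

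The groups carried the markers that set them, as the grouping rules required, so the first values below are no separate support for the group names. Motoneuron-like cells had 506 and 576 CPM (UMIs per 1000000 UMIs of the summed group) of isl1, and fibroblast markers summed to 12497 and 12354 CPM in fibroblast-like cells, against 9.9 and 26.9 CPM in neurons. The evx groups also carried inhibitory genes, although slc6a5 and slc6a1b were excluded there. The 5 inhibitory genes counted summed to 308 and 317 CPM in skor2 evx and 207 and 186 CPM in skor2-negative evx neurons. In the same order, vesicular glutamate transporter genes summed to 555 and 602 CPM and to 419 and 390 CPM. In hmx slc6a1b and hmx glycinergic neurons the inhibitory genes summed to 3037 and 2656 CPM and to 1513 and 2141 CPM. The fibroblast-like cells also carried epidermal markers (1680.6 and 2377.0 CPM), the progenitor-like cells carried elavl3 (704 and 1002 CPM), a gene of new neurons, and 20 of 148 and 44 of 166 hmx glycinergic cells carried an en1b UMI. Muscle markers were at 367 to 748 CPM in every group, a level shared across types. The heat-shock gene hsp70l was at 4497 to 11360 CPM in groups of library 1 and at 29 to 177 CPM in those of library 2. Their part in the results below was not tested, except where values without the en1b cells are given.

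Each guidance gene had at least 1 UMI in these neurons, progenitor-like and fibroblast-like cells, with 1 to 9617 UMIs and a median of 219. The filter on low counts kept 46 of the 95 genes in the comparisons among neuron groups (22 ligands, 23 receptors and unc50) and 77 in the comparisons of neurons with other cells. Of the 46, 35 passed the test in at least 1 of the 7 comparisons among neuron groups and 16 in 4 or more. The ephrin gene efnb3b, the plexin gene plxna4 and robo3 each passed in 6. The 7 comparisons share groups with each other, so these are not independent counts. The same counts were not made over all genes tested, so no background stands beside them. UMIs of 3′ tags are not scaled by gene length and capture differs between genes, so levels are compared below within a gene and not between genes. Ohnologues (a and b copies from the teleost genome duplication) can share reads where their 3′ ends are alike, which was not examined here.

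**Figure D1:**
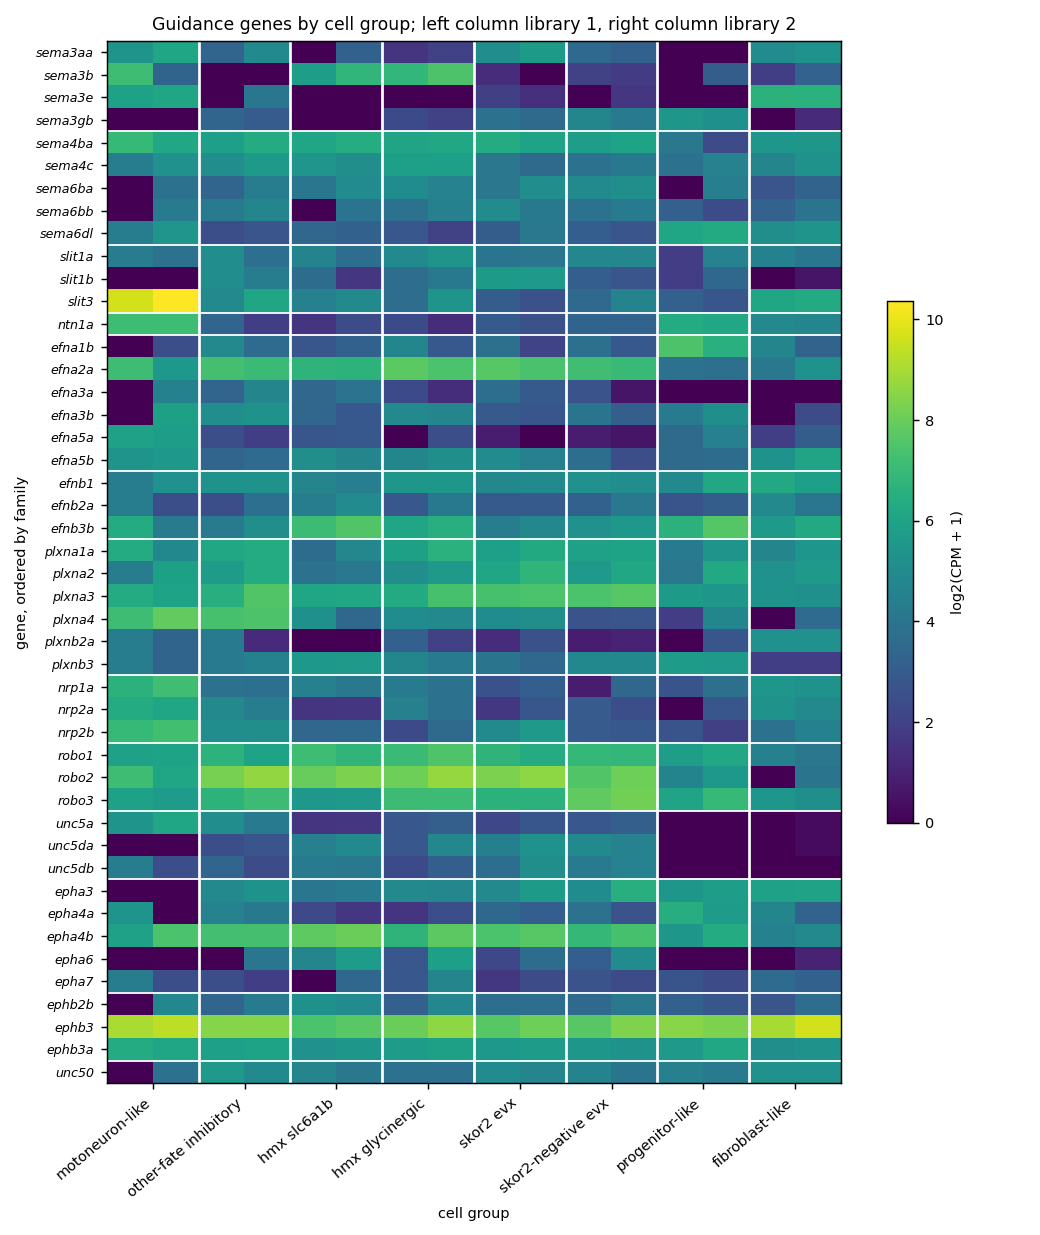
Heat map of log2(CPM + 1) of the 46 guidance genes that passed the filter among neuron groups, by gene (vertical, ordered by family) and cell group (horizontal; left column library 1, right column library 2). The slit3 row is brightest in motoneuron-like cells (829 and 1312 CPM), and the unc5da and unc5db rows are dark in progenitor-like and fibroblast-like cells.

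The first comparison asked which guidance genes differ between inhibitory neurons that carry hmx genes and excitatory neurons that carry evx genes. Among ligands, sema3b was higher and sema3gb and sema3aa were lower in the hmx groups, so class 3 semaphorins differed in both directions. Among receptors, plxna2, plxna3, plxna1a, epha3, unc5db and robo3 were lower, and epha6, ephb2b, plxna4, plxnb3, robo1 and nrp1a were higher. These calls average over the matched pairs of groups compared below, between which plxna1a, plxna2, plxna4 and plxnb3 differed. There plxna1a, plxna2 and plxnb3 passed only in the slc6a1b and skor2 pair. The plexin gene plxna4 passed only in the glycinergic and skor2-negative pair. In all, 11 of the 46 genes were higher and 8 lower in the hmx groups (edgeR, adjusted p below 0.05), which is 23.9% and 17.4% of them. Over all 8101 genes tested the shares were 10.7% higher and 9.05% lower. The stress gene hsp70l moved with this comparison and with both of its matched pairs. It was at 11360 and 177 CPM in hmx slc6a1b and 9563 and 63.8 CPM in hmx glycinergic neurons, against 6289 and 30.8 CPM in skor2 evx and 4497 and 29.1 CPM in skor2-negative evx neurons, and its part in the results was not tested. The median log2 fold change was 0.05 over the guidance genes and 0.01 over all genes.

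The largest difference was that of sema3b, a secreted class 3 semaphorin. It had 52.9 and 110.3 CPM in the hmx slc6a1b neurons and 117 and 178 CPM in the hmx glycinergic neurons, against 1.48 and 0 CPM in the skor2 evx neurons and 3.05 and 2.60 CPM in the skor2-negative evx neurons. The groups did not overlap in either library. How many of all genes lay apart in this way was not counted, here or for the genes below. The log2 fold change was 6.03 ± 0.36 (SE, n = 2 libraries; adjusted p = 1.8e-16). The other-fate inhibitory neurons, which are also inhibitory, had no sema3b UMI in either library, and motoneuron-like cells had 142 and 9.08 CPM, a wide spread. After thinning each cell to 2000 UMIs and leaving out shallower cells, sema3b was seen in 10.9% and 14.2% of hmx slc6a1b cells (16.7% and 22.1% unthinned) and in 15.7% and 21.1% of hmx glycinergic cells (21.6% and 29.5% unthinned). It was seen in 0 of 305 and 0 of 250 skor2 evx cells, in 0 of 299 and 0.515% of skor2-negative evx cells and in 0 of 62 and 1.40% of fibroblast-like cells. The 4 counts of 0 allow shares of up to 0.984%, 1.2%, 1% and 4.84% of cells with a UMI at that depth, which limits detection and not expression. Unthinned, the shares were 0.649% and 0% of skor2 evx, 1.33% and 1.28% of skor2-negative evx and 1.54% and 2.15% of fibroblast-like cells. Thinning left out 3 and 0 hmx slc6a1b, 8 and 5 hmx glycinergic, 3 and 1 skor2 evx and 2 and 2 skor2-negative evx cells.

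The class 3 semaphorin genes sema3gb and sema3aa went the other way. In hmx slc6a1b neurons sema3gb was not seen, and in hmx glycinergic neurons it had 4.02 and 3.11 CPM, against 14.0 and 10.8 CPM in skor2 evx neurons and 25.9 and 17.7 CPM in skor2-negative evx neurons. The gene encoding Sema3A, a repellent of many axon types, sema3aa, had 0 and 8.33 CPM in hmx slc6a1b neurons and 2.01 and 3.11 CPM in hmx glycinergic neurons. It had 32.5 and 49.1 CPM in skor2 evx neurons and 10.7 and 8.31 CPM in skor2-negative evx neurons. The log2 fold change of sema3aa was -2.53 ± 0.49 (adjusted p = 0.00013). For sema3gb (adjusted p = 3.1e-05) the fitted size is not given, since the hmx slc6a1b neurons were at 0 UMIs, and without the skor2-negative evx neurons the gene would not have passed the filter on low counts. No sema3gb value of an hmx group reached the lowest of an evx group, whereas the sema3aa ranges of the slc6a1b and skor2-negative groups touched in library 2. The ohnologue sema3ab was at or below 4.02 CPM in these 4 groups and sema3ga at or below 1.04 CPM.

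Ephrins and their receptors also differed. The ephrin-B gene efnb3b, whose product in mice is known as a midline barrier to spinal axons, had 135 and 187 CPM in hmx slc6a1b and 68.4 and 90.3 CPM in hmx glycinergic neurons, against 19.9 and 26.6 CPM in skor2 evx and 36.6 and 45.2 CPM in skor2-negative evx neurons. All 4 hmx values lay above all 4 evx values, and the log2 fold change was 1.86 ± 0.17 (adjusted p = 2.5e-11). The receptor gene epha6 had 25.5 and 52.0 CPM in hmx slc6a1b and 6.03 and 56.1 CPM in hmx glycinergic neurons, against 3.69 and 11.7 CPM in skor2 evx and 7.63 and 30.6 CPM in skor2-negative evx neurons. Here the libraries stood apart, since epha6 averaged 7.87 CPM in library 1 and 28.0 CPM in library 2 over the 6 neuron groups. Its log2 fold change of 1.51 ± 0.30 (adjusted p = 0.00017) lost its call under 2 alternatives (adjusted p = 0.059 and 0.091).

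Receptor genes for class 3 semaphorins and Slits differed in both directions. The plexin gene plxna2 had 13.7 and 16.7 CPM in hmx slc6a1b and 34.2 and 48.3 CPM in hmx glycinergic neurons, against 68.6 and 108 CPM in skor2 evx and 45.8 and 72.7 CPM in skor2-negative evx neurons (log2 fold change -1.54 ± 0.20, adjusted p = 1.4e-07). Within each library both hmx values lay below both evx values. For robo3, needed for midline crossing, the values were 45.0 and 45.8 CPM in hmx slc6a1b and 135 and 135 CPM in hmx glycinergic neurons, against 101 and 99.0 CPM in skor2 evx and 223 and 286 CPM in skor2-negative evx neurons. The hmx glycinergic values exceeded those of the skor2 evx neurons, so the difference of -1.05 ± 0.14 (adjusted p = 1.9e-07) holds within each matched pair of groups and not over all 4. Smaller differences were those of robo1, a Slit receptor gene (log2 fold change 0.40 ± 0.13, adjusted p = 0.028), and of the plexin gene plxna3 (-0.95 ± 0.14, adjusted p = 2.3e-06).

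Other called genes included the transmembrane semaphorin gene sema4c, with 41.1 and 33.3 CPM in hmx slc6a1b and 56.3 and 56.1 CPM in hmx glycinergic neurons, against 16.2 and 10.8 CPM in skor2 evx and 13.7 and 17.1 CPM in skor2-negative evx neurons (1.62 ± 0.24, adjusted p = 1.4e-06). Here too the groups did not overlap, and the share of all genes that lay apart was not counted. The ephrin-A receptor gene epha3 was lower (-1.19 ± 0.25, adjusted p = 0.00037), as was unc5db, a netrin receptor gene (-1.08 ± 0.36, adjusted p = 0.029), while nrp1a, a Sema3A co-receptor gene, was higher (1.45 ± 0.42, adjusted p = 0.0095). The Slit gene slit3 was higher by 1.28 ± 0.29 (adjusted p = 0.0012). Its difference was 0.41 (adjusted p = 0.49) without the hmx cells that carried an en1b UMI, and slit3 had 36.0 and 198 CPM in the en1b-carrying part of the other-fate neurons. That part held only 27755 UMIs of all genes in library 1, so its value there rests on very few UMIs. The calls of nrp1a and unc5db were also lost under 2 and 4 alternatives.

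**Figure D2:**
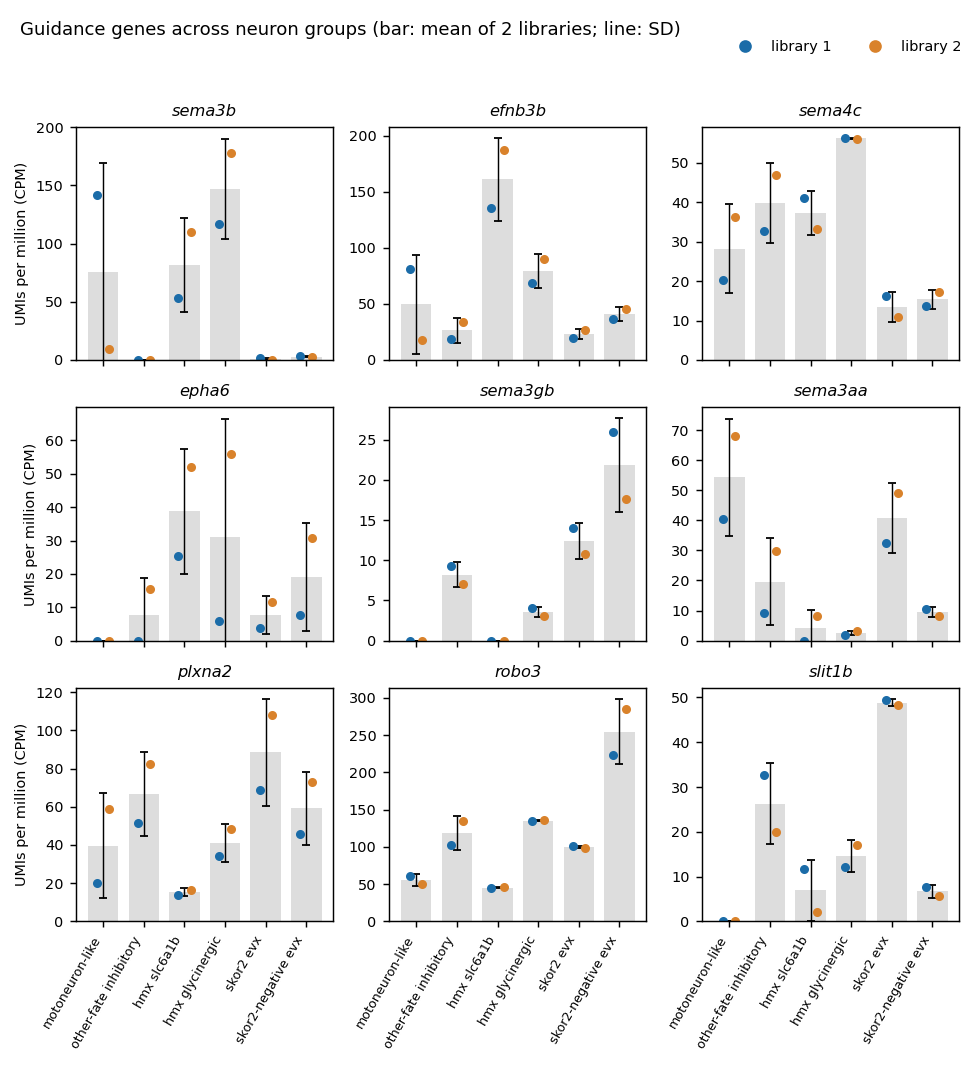
CPM (vertical) of 9 guidance genes in the 6 neuron groups (horizontal), with bars for the mean of 2 libraries, lines for the SD and points for each library. In hmx slc6a1b and hmx glycinergic neurons sema3b lies between 52.9 and 178 CPM, and in both evx groups at or below 3.05 CPM.

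The hmx and evx groups were then compared in matched pairs. The study described 2 kinds of excitatory V0v cells and proposes, as the more likely reading, that 2 of its mutant clusters are their mutant versions. The pairing here carries that inference over to groups rebuilt from marker UMIs, and the match itself was not tested. In the slc6a1b and skor2 pair, 8 of 46 guidance genes were higher and 11 lower in the hmx slc6a1b neurons, against 6.49% higher and 5.51% lower among all genes tested. The guidance shares were 17.4% and 23.9%, and the medians were -0.31 for guidance genes and 0.00 for all genes. In the glycinergic and skor2-negative pair, 9 were higher and 5 lower in the hmx glycinergic neurons (19.6% and 10.9%), against 11% higher and 9.2% lower among all genes, with medians of 0.32 and 0.05. The 5 lower genes include sema3gb, which passed the filter on low counts only through the skor2-negative evx neurons. The 8 higher genes of the first pair include efnb2a, which passed it only through the hmx slc6a1b neurons. DESeq2 in place of edgeR called 8 guidance genes in the second pair, against 14 with edgeR.

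In the slc6a1b and skor2 pair, efnb3b rose most clearly (log2 fold change 2.76 ± 0.24, adjusted p = 6.4e-12), with sema3b at 80 UMIs in hmx slc6a1b neurons against 2 in skor2 evx neurons, a ratio of 103 (95% counting interval 27.7 to 867). The plexin gene plxnb3 had 45.0 and 45.8 CPM in hmx slc6a1b neurons, against 14.8 and 9.99 CPM in skor2 evx neurons (1.82 ± 0.35, adjusted p = 0.00018), and epha6 was higher by 2.34 ± 0.46 (adjusted p = 0.00019). The Slit gene slit1b had 11.7 and 2.08 CPM in hmx slc6a1b neurons, against 49.4 and 48.3 CPM in skor2 evx neurons (-2.80 ± 0.47, adjusted p = 2.1e-05). A co-receptor gene for class 3 semaphorins, nrp2b, had 9.79 and 10.4 CPM in hmx slc6a1b neurons, against 29.5 and 47.4 CPM in skor2 evx neurons (-1.92 ± 0.43, adjusted p = 0.0011). The values of plxnb3, slit1b and nrp2b did not overlap between this pair of groups. These genes had passed the test, and the share of all genes that lay apart was not counted. The plexins plxna2 (-2.54 ± 0.31) and plxna1a (-1.80 ± 0.33) fell as well, and sema3gb was at least 4.13-fold lower with 0 UMIs in hmx slc6a1b neurons against 32 in skor2 evx neurons. The calls of epha6, efnb2a (1.86 ± 0.52, a gene that would not have passed the filter on low counts without the hmx slc6a1b neurons), slit3 (1.95 ± 0.47) and sema6bb (-1.81 ± 0.61) were lost under 2 to 5 alternatives, and slit3 differed by 1.48 (adjusted p = 0.06) without the en1b cells.

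In the glycinergic and skor2-negative pair, sema3b (5.68 ± 0.41, adjusted p = 6.4e-14) and sema4c (1.83 ± 0.30, adjusted p = 1.6e-05) rose, and robo3 (-0.92 ± 0.16, adjusted p = 2.6e-05) and sema3gb (-2.54 ± 0.64, adjusted p = 0.0033) fell. The calls of sema3b, sema4c and robo3 held under every alternative run that gave a test. That of sema3gb did too, but the gene had to be high in skor2-negative evx neurons to pass the filter on low counts. The plexin gene plxna4 had 32.2 and 28.0 CPM in hmx glycinergic neurons, against 5.34 and 5.71 CPM in skor2-negative evx neurons (2.39 ± 0.45, adjusted p = 0.0001). Without the hmx cells that carried an en1b UMI, plxna4 differed by 1.47 (adjusted p = 0.076). The ephrin-A gene efna5b (1.95 ± 0.42), nrp2a (1.62 ± 0.56), efna3b (1.30 ± 0.44), efnb3b (0.95 ± 0.24), epha3 (-1.21 ± 0.31), plxna3 (-0.62 ± 0.18) and unc5db (-1.78 ± 0.55) were called but lost the call under 1 to 6 alternatives. With 1 UMI more for each marker, the log2 fold change of efna3b was -0.02 and that of nrp2a 0.14. The Slit receptor gene robo2 was higher by 0.58 ± 0.15 (adjusted p = 0.0035).

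The difference between the 2 pairs was tested as an interaction. Of 46 guidance genes, 2 were more positive in the slc6a1b and skor2 pair and 7 more negative, that is 4.35% and 15.2%, against 4.1% and 5.15% of all genes. The 2 more positive genes were plxnb3 (difference of log2 fold changes 2.15 ± 0.49, adjusted p = 0.0025) and efnb3b (1.80 ± 0.34, adjusted p = 0.00024). The 7 more negative genes were slit1b (-3.97 ± 0.74), plxna4 (-2.92 ± 0.57), plxna1a (-2.15 ± 0.41), plxna2 (-2.01 ± 0.43), efna5b (-1.84 ± 0.55), efna2a (-1.34 ± 0.24) and robo2 (-0.94 ± 0.21), with adjusted p from 0.00014 to 0.026. So 4 of the 6 plexin genes tested among neuron groups differed between the pairs. For plxna1a the values show it directly, with 11.7 and 27.1 CPM in hmx slc6a1b against 56.1 and 76.6 CPM in skor2 evx neurons, and 58.3 and 98.1 CPM in hmx glycinergic against 60.3 and 63.3 CPM in skor2-negative evx neurons. For efna2a, an ephrin-A gene, they were 106 and 104 CPM in hmx slc6a1b against 204 and 166 CPM in skor2 evx neurons, and 215 and 169.7 CPM in hmx glycinergic against 145 and 126 CPM in skor2-negative evx neurons. The efna2a order of hmx and evx thus turned round between the pairs in both libraries. Without the en1b cells the plxna4 difference was -2.06 (adjusted p = 0.061).

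**Figure D3:**
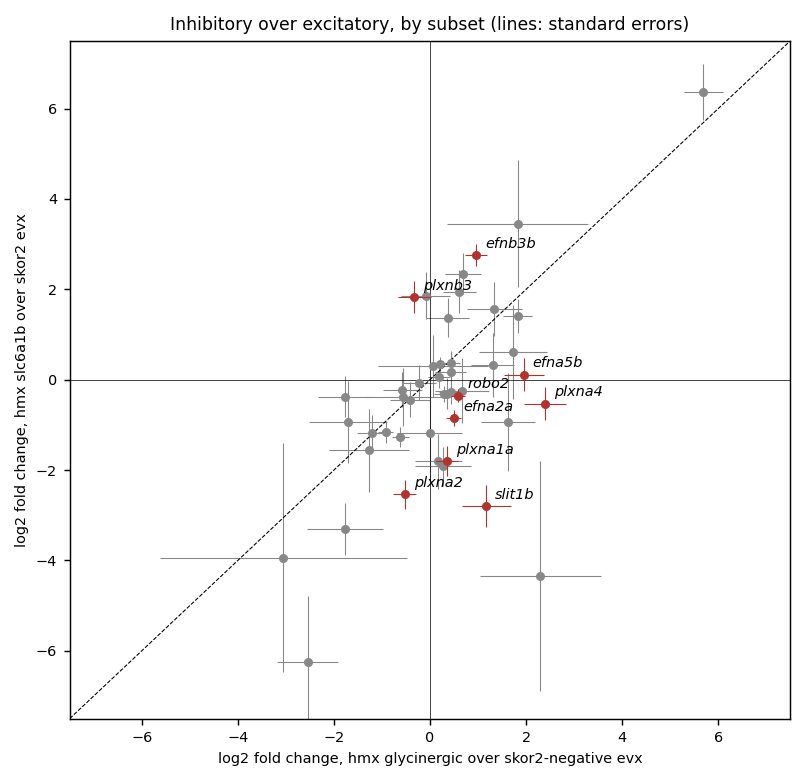
Log2 fold change of hmx slc6a1b over skor2 evx neurons (vertical) against that of hmx glycinergic over skor2-negative evx neurons (horizontal) for 46 guidance genes, with standard errors as lines. The 9 labelled red genes differed between the pairs, with plxnb3 and efnb3b above the dashed line of equality and slit1b, plxna4, plxna1a, plxna2, efna5b, efna2a and robo2 below it.

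Between the 2 excitatory groups guidance genes were called at shares near those of all genes. In skor2 evx neurons slit1b, nrp2b, plxna4, sema3aa, efna5b, robo2, plxna2 and efna2a were higher, and slit3, robo3, epha6, plxnb3, efnb3b and epha3 were lower, than in skor2-negative evx neurons. These 8 higher and 6 lower genes are 17.4% and 13.0% of the 46, against 14.9% and 12% of all genes tested, so the shares were near the background. The medians were -0.18 for guidance genes and 0.01 for all genes.

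The values of slit1b were 49.4 and 48.3 CPM in skor2 evx neurons, against 7.63 and 5.71 CPM in skor2-negative evx neurons (2.82 ± 0.34, adjusted p = 3.5e-08). For nrp2b they were 29.5 and 47.4 CPM in skor2 evx neurons, against 6.86 and 6.23 CPM in skor2-negative evx neurons (2.52 ± 0.33, adjusted p = 2.1e-07). For plxna4 they were 31.7 and 34.1 CPM in skor2 evx neurons, against 5.34 and 5.71 CPM in skor2-negative evx neurons (2.49 ± 0.37, adjusted p = 1.5e-06). Thus a Slit, a neuropilin and a plexin were each several-fold higher in the skor2 evx neurons. For robo3 the order was the opposite, with 101 and 99.0 CPM in skor2 evx neurons against 223 and 286 CPM in skor2-negative evx neurons (-1.38 ± 0.14, adjusted p = 8.4e-10). The values of robo2 were 315 and 389 CPM in skor2 evx neurons, against 188 and 268 CPM in skor2-negative evx neurons (0.59 ± 0.14, adjusted p = 0.00092). The Slit receptor genes robo2 and robo3 therefore differed in opposite directions between the excitatory groups, while robo1, with 105 and 82.4 CPM in skor2 evx and 117 and 115 CPM in skor2-negative evx neurons, was not called. The ohnologue slit1a, with 15.5 and 15.8 CPM in skor2 evx and 26.7 and 26.5 CPM in skor2-negative evx neurons, was not called either. The calls of efna5b, robo2, slit3, epha6, efnb3b and epha3 were lost under 1 to 6 alternatives, and slit3 differed by -0.41 when no upper limits were set on UMIs and genes per cell.

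The other-fate inhibitory neurons were set against the hmx inhibitory neurons, both being inhibitory. Here 12 of 46 guidance genes were higher and 4 lower in the other-fate neurons (26.1% and 8.70%), against 4.06% higher and 3.1% lower among all genes tested. The higher genes were mostly receptors, with plxna4, plxna2, plxna3, plxna1a, nrp2b, epha4a, ephb3, unc5a and robo3 among them, and the medians were 0.48 for guidance genes and 0.01 for all genes. Under DESeq2 9 genes were called in place of 16. This group had 62 and 177 cells, and it pools fates that differ among themselves.

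The clearest higher gene was plxna4, with 163 and 176 CPM in other-fate neurons, against 35.2 and 10.4 CPM in hmx slc6a1b and 32.2 and 28.0 CPM in hmx glycinergic neurons (2.75 ± 0.26, adjusted p = 1.1e-10). The ranges were far apart. Its co-receptor gene nrp2b had 32.7 and 34.1 CPM in other-fate neurons, against 9.79 and 10.4 CPM in hmx slc6a1b and 4.02 and 10.9 CPM in hmx glycinergic neurons (1.86 ± 0.43, adjusted p = 0.003), a call lost under 2 alternatives. The netrin receptor gene unc5a had 32.7 and 18.5 CPM in other-fate neurons, against 1.96 and 2.08 CPM in hmx slc6a1b and 6.03 and 7.79 CPM in hmx glycinergic neurons (2.53 ± 0.67, adjusted p = 0.011). The ligand gene sema3aa was higher by 2.79 ± 0.62 (adjusted p = 0.002) and the receptor gene epha4a, which would not have passed the filter on low counts without the other-fate neurons, by 2.70 ± 0.73 (adjusted p = 0.015).

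Among lower genes, sema3b was absent from other-fate neurons (0 UMIs, against 252 in the hmx neurons) and was at least 36.2-fold lower. The ephrin gene efnb3b had 18.7 and 34.1 CPM in other-fate neurons, below every value of the hmx groups (-1.93 ± 0.28, adjusted p = 3.1e-06). Calls for epha6 (-1.89 ± 0.47), robo1 (-0.85 ± 0.22), plxna1a (0.98 ± 0.28) and slit3 (1.01 ± 0.31) were lost under 2 to 5 alternatives, and those of epha4a and unc5a under 1. The gene sema3e passed the test with 11 UMIs in other-fate neurons, all in library 2, against 0 in hmx neurons (at least 8.51-fold). Library 1 had no sema3e UMI on either side and gave no direction.

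The other-fate neurons fall into cells with en1b (11 and 32), gata and tal cells (13 and 39) and cells with dmrt3a or lbx1a (38 and 106). The gata and tal cells carried at least 2 of gata2a, gata3 and tal1. Guidance genes of these parts are given as values without a test. The dmrt3a or lbx1a cells had 148 and 192 CPM of robo3, the gata and tal cells had 0 and 12.5 CPM and the en1b cells had 36.0 and 90.2 CPM. For efnb3b the en1b cells had no UMI, the gata and tal cells had 45.2 and 49.8 CPM and the dmrt3a or lbx1a cells 14.1 and 37 CPM. The receptor gene ephb3 was at 721 and 541 CPM in the en1b cells, 158 and 230 CPM in the gata and tal cells and 345 and 361 CPM in the dmrt3a or lbx1a cells. In library 1 the en1b cells held only 27755 UMIs of all genes and the gata and tal cells 44259. Low values there rest on very few UMIs, and values of 0 do not show absence. The printed values put these parts in different orders for different genes, and no order was tested.

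Motoneuron-like cells were set against the 4 hmx and evx groups. The ligand genes slit3, ntn1a, efna5a, sema3e and sema3aa (2.78 ± 0.56, adjusted p = 0.00049), 3 neuropilin genes and plxna4 were higher, and robo2, robo3 and efna2a were lower. Of 46 guidance genes 13 were higher and 6 lower (28.3% and 13.0%), against 4% higher and 2.89% lower among all genes tested, with medians of 0.11 and -0.07. Of the 13, 4 (ntn1a, efna5a, sema3e and sema6dl) would not have passed the filter on low counts without the motoneuron-like cells, so they had to be high there to be tested. These values rest on 18 and 54 cells, and 1 UMI was worth 20.2 CPM in library 1, so that levels of a few CPM were not detectable there. In library 1 these cells also had fewer UMIs (median 2442.5) than the other neuron groups (3347.5 to 4364).

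For slit3 the motoneuron-like values were 829 and 1312 CPM, against 4.99 to 40.5 CPM in the hmx and evx groups (log2 fold change 5.92 ± 0.18, adjusted p = 6.6e-26). After thinning to 2000 UMIs, 66.7% and 81.1% of motoneuron-like cells (of 12 and 53) carried slit3, against 1.64% and 0.4% of skor2 evx cells and 16.1% and 14.6% of fibroblast-like cells. Unthinned, the shares were 66.7% and 81.5% of motoneuron-like cells, against 2.92% and 2.39% of skor2 evx and 24.6% and 29.2% of fibroblast-like cells. Summed over the 4 Slits, the level was 870 and 1325 CPM in motoneuron-like cells, nearly all of it slit3. The netrin gene ntn1a had 142 and 141 CPM in motoneuron-like cells, against 1.56 to 9.15 CPM in the hmx and evx groups (4.89 ± 0.47, adjusted p = 1.4e-10). The ephrin-A gene efna5a had 60.7 and 54.5 CPM in motoneuron-like cells, against 0 to 6.25 CPM in the hmx and evx groups (5.01 ± 0.83, adjusted p = 2.8e-05). The class 3 semaphorin gene sema3e had 60.7 and 68.1 CPM in motoneuron-like cells, against 0 to 2.95 CPM in the hmx and evx groups (6.70 ± 0.97, adjusted p = 2.9e-06). The slit3 values lay above all those of the hmx and evx groups. Those of ntn1a, efna5a and sema3e did too, but these genes had to be high in motoneuron-like cells to be tested.

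Among receptors, the Sema3 co-receptor gene nrp1a had 101 and 145 CPM in motoneuron-like cells, against 0.763 to 21.5 CPM in the hmx and evx groups (3.52 ± 0.44, adjusted p = 9e-08). The values of nrp2b were 121 and 149.8 CPM in motoneuron-like cells, against 4.02 to 47.4 CPM in the hmx and evx groups (3.45 ± 0.36, adjusted p = 1.2e-09). Those of nrp2a were 80.9 and 68.1 CPM in motoneuron-like cells, against 1.96 to 22.1 CPM in the hmx and evx groups (3.70 ± 0.57, adjusted p = 8.4e-06). So each of the 3 neuropilin genes tested rose. Their ranges did not overlap, and how many of all genes lay apart in this way was not counted. Their signalling partner gene plxna4 had 142 and 236 CPM in motoneuron-like cells, against 5.34 to 35.2 CPM in the hmx and evx groups (3.46 ± 0.31, adjusted p = 2.7e-11). The Eph receptor gene ephb3 had 526 and 649 CPM in motoneuron-like cells, against 170.4 to 389 CPM in the hmx and evx groups (1.18 ± 0.16, adjusted p = 7.2e-07). The netrin receptor gene unc5a had 40.4 and 68.1 CPM in motoneuron-like cells, against 1.96 to 7.79 CPM in the hmx and evx groups (3.60 ± 0.61, adjusted p = 3.5e-05).

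The Slit receptor gene robo2 had 142 and 68.1 CPM in motoneuron-like cells, against 188 to 417 CPM in the hmx and evx groups (-1.98 ± 0.27, adjusted p = 8.7e-07). Thus the ligand gene slit3 was higher and the receptor gene robo2 lower in the same cells, while robo3 was lower (-1.17 ± 0.35, adjusted p = 0.029) and robo1 (60.7 and 63.5 CPM) was not called. The robo3 difference is from the mean of groups that differed widely in robo3 among themselves, so it need not hold against each of them. Genes with no UMI in motoneuron-like cells were epha3 (at least 4.13-fold lower), unc5da (at least 2.28-fold) and epha6 (at least 1.87-fold). Each of these 3 calls was lost under 2 to 5 alternatives. The gene efna3b was called higher (2.10 ± 0.59) with 0 CPM in motoneuron-like cells of library 1 and 59.0 CPM in those of library 2, so the call rested on library 2. The other-fate neurons shared high plxna4 (163 and 176 CPM) with the motoneuron-like cells but not high slit3 (28.0 and 69.6 CPM) or ntn1a (9.34 and 2.84 CPM).

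**Figure D4:**
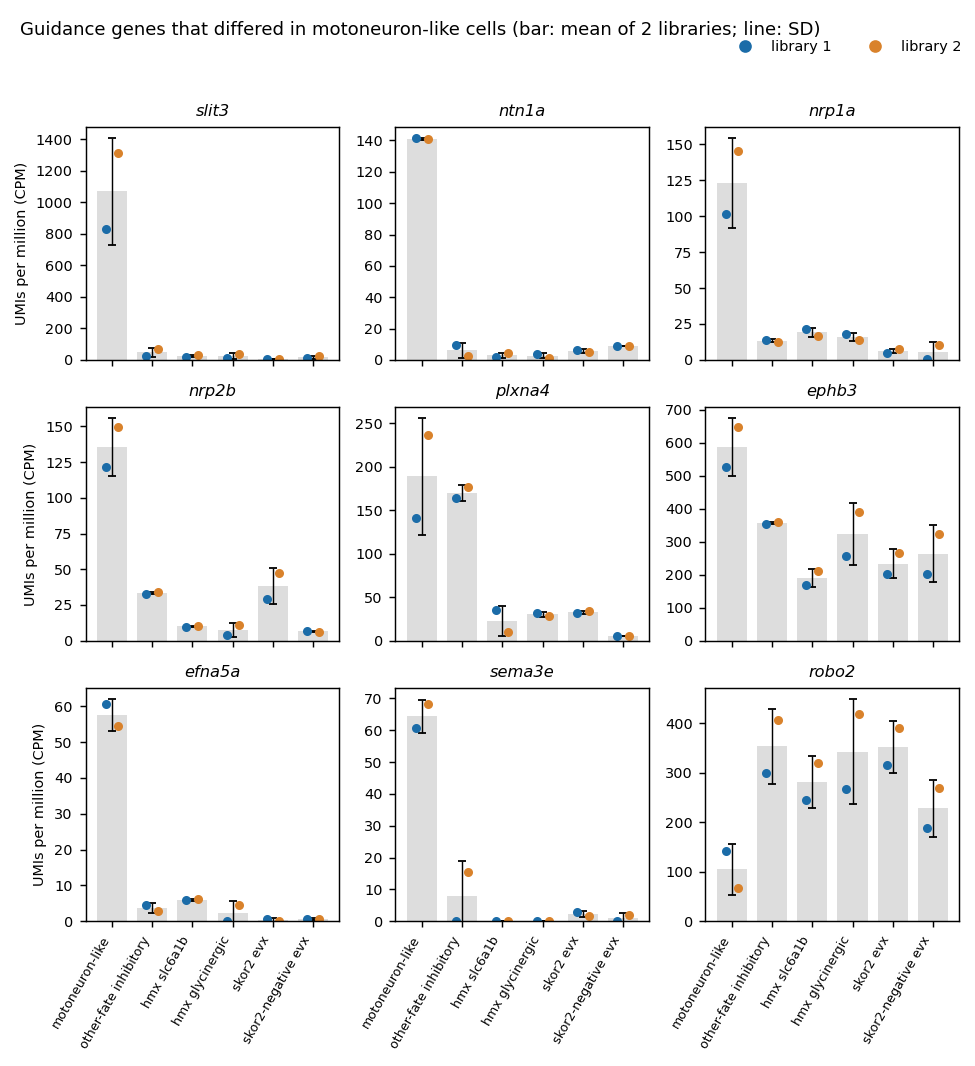
CPM (vertical) of 9 guidance genes in the 6 neuron groups (horizontal), with bars for the mean of 2 libraries, lines for the SD and points for each library. Motoneuron-like cells stand highest for slit3 (829 and 1312 CPM), ntn1a, nrp1a, nrp2b, ephb3, efna5a and sema3e, and lowest for robo2 (142 and 68.1 CPM).

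All neurons were then set against fibroblast-like cells to ask which guidance genes are neuronal within the sorted sample. In neurons 3 of 4 Robos, 4 of 6 Dcc and Unc5 receptors and 4 of 8 plexins were higher, and 4 of 5 ephrin-Bs, 3 of 5 EphBs, 3 of 4 neuropilins, 6 of 9 class 3 semaphorins and both netrins tested were lower. Against these directions, 2 Dcc and Unc5 receptors and 3 plexins were lower and 2 class 3 semaphorins were higher. Plexins thus differed in both directions. Of 77 guidance genes 22 were higher and 39 lower in neurons (28.6% and 50.6%), against 37.1% higher and 31.5% lower among all 13760 genes tested. The median was -0.79 for guidance genes and 0.25 for all genes. By role, 13 of 34 receptors were higher and 14 lower, and 9 of 42 ligands were higher and 24 lower. Of the higher genes 7 would not have passed the filter on low counts without the neurons (efna3a, epha6, sema4gb, slit1b, unc5a, unc5da and unc5db). Of the lower genes 13 would not have passed it without the fibroblast-like cells (efna2b, epha4l, nrp1b, ntn1b, plxnb2a, sema3ab, sema3bl, sema3e, sema3fa, sema4ab, sema4bb, sema5a and slit2). All of these had to be high there to be tested, and the family counts above include them. Scaling by total UMIs in place of TMM moved the median of all genes to 0.49.

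The Slit receptor gene robo2 had 245 and 309 CPM in neurons, against 0 and 14.8 CPM in fibroblast-like cells (4.42 ± 0.30, adjusted p = 5.9e-47). In cells thinned to 2000 UMIs it was seen in 35.9% and 41.7% of neurons (52.9% and 62.1% unthinned), against 0 of 62 and 2.80% of fibroblast-like cells (0% and 7.39% unthinned). The count of 0 allows up to 4.84% of cells with a UMI at that depth. The Robo genes robo1 (2.44 ± 0.29) and robo3 (2.15 ± 0.26) were also higher in neurons, so 3 of 4 Robos rose. The netrin receptor gene unc5db had 331 UMIs in neurons and none in fibroblast-like cells (at least 22.2-fold higher, a call lost under DESeq2), and its ohnologue unc5da had 442 UMIs against 1 (ratio 88.9, counting interval 15.9 to 3520). Both unc5db and unc5da had to be high in neurons to be tested. The gene dcc was at 2.91 and 3.95 CPM in neurons and had no UMI in fibroblast-like cells (at least 5.16-fold higher). The ephrin-A gene efna2a had 177 and 139 CPM in neurons, against 16.9 and 39.2 CPM in fibroblast-like cells (1.96 ± 0.26, adjusted p = 1.4e-13).

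Lower genes included nrp1b, with 0.376 and 1.03 CPM in neurons against 31.0 and 57.9 CPM in fibroblast-like cells (-6.12 ± 0.44, adjusted p = 1.4e-42). The secreted semaphorin gene sema3e had 0.939 and 2.92 CPM in neurons, against 98.7 and 98.3 CPM in fibroblast-like cells (-5.81 ± 0.34, adjusted p = 4.4e-62). The ephrin-B gene efnb3a had 3.29 and 3.87 CPM in neurons, against 67.7 and 116 CPM in fibroblast-like cells (-4.84 ± 0.33, adjusted p = 2.1e-48). These 3 genes were at low levels in neurons in both libraries. Of these, nrp1b and sema3e had to be high in fibroblast-like cells to be tested, as did plxnb2a and efna2b below. The plexin gene plxnb2a (-4.11 ± 0.39), efna2b (-5.53 ± 0.64) and ephb4b (-5.25 ± 0.68) were lower too, and ephb3, which was high in motoneuron-like cells, had 215 and 297 CPM in neurons against 508 and 808 CPM in fibroblast-like cells (-1.55 ± 0.23, adjusted p = 5e-11). Both ohnologues of the ephrin-B pair efnb3a and efnb3b were measured, and only efnb3a was called here. The lower calls of epha2a and sema3fb rested on library 2, since fibroblast-like cells of library 1 had no UMI of either gene and neurons there had 0 and 14. Epidermal markers were also higher in the fibroblast-like cells, and their part in these differences was not tested.

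Neurons were last set against progenitor-like cells, a group set by marker UMIs alone, whose tissue of origin was not tested. Here 21 of 77 guidance genes were higher and 27 lower in neurons (27.3% and 35.1%), against 28.1% higher and 21.1% lower among all genes tested. The median was -0.13, or -0.43 with genes at 0 UMIs set to their bounds, and 0.25 over all genes. Ligands were 10 higher and 18 lower of 42, and receptors 11 higher and 9 lower of 34. Progenitor-like cells carried elavl3 (704 and 1002 CPM), and its part in these differences was not tested.

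The ephrin-A gene efna2a had 177 and 139 CPM in neurons, against 13.6 and 13.0 CPM in progenitor-like cells (3.57 ± 0.36, adjusted p = 2.5e-22). For robo2 the values were 245 and 309 CPM in neurons, against 24.5 and 44.9 CPM in progenitor-like cells (3.0 ± 0.29, adjusted p = 2e-23). The semaphorin gene sema4ba had 62.7 and 72.1 CPM in neurons, against 16.3 and 4.35 CPM in progenitor-like cells (2.95 ± 0.43, adjusted p = 7.6e-11). Its ohnologue sema4bb was at 2.53 and 2.49 CPM in neurons and 2.72 and 7.25 CPM in progenitor-like cells and was not called. With no UMI in progenitor-like cells, unc5da was at least 6.99-fold higher in neurons, epha6 at least 6.61-fold, unc5db at least 5.23-fold, sema3aa at least 4.43-fold, unc5a at least 2.58-fold and efna3a at least 2.51-fold. All of these except sema3aa had to be high in neurons to be tested, as did sema4gb. Under DESeq2 the calls of unc5db (adjusted p = 0.36) and sema4gb (adjusted p = 0.071) were lost.

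Among genes lower in neurons, robo4, a Robo best known from vessels, had 0.563 and 0.945 CPM in neurons, against 76.2 and 148 CPM in progenitor-like cells (-7.17 ± 0.41, adjusted p = 6.3e-65) and 0 and 1.21 CPM in fibroblast-like cells. So 3 Robos were higher and robo4 was lower in neurons than in progenitor-like cells. The netrin gene ntn1a had 7.42 and 10.1 CPM in neurons, against 81.6 and 73.9 CPM in progenitor-like cells (-3.15 ± 0.32, adjusted p = 3.9e-21), and efna1b had 21.7 and 7.56 CPM in neurons, against 174 and 95.7 CPM in progenitor-like cells (-3.34 ± 0.29, adjusted p = 8.8e-29). The ephrin-B gene efnb2b had 0.469 and 0.773 CPM in neurons, against 35.4 and 65.2 CPM in progenitor-like cells (-6.28 ± 0.49, adjusted p = 3.6e-36), and efnb3b had 45.1 and 60.7 CPM in neurons, against 101 and 199 CPM in progenitor-like cells (-1.48 ± 0.25, adjusted p = 1.3e-08). All of these ligand genes were higher in progenitor-like cells in both libraries. The plexins plxnb1a (-6.39 ± 0.80) and plxnb1b (-6.27 ± 0.65) fell with them, and sema6dl had 8.45 and 9.28 CPM in neurons, against 68.0 and 79.7 CPM in progenitor-like cells (-3.07 ± 0.32, adjusted p = 5.5e-20). The receptor gene epha2a had 2 UMIs in neurons and 15 in progenitor-like cells (158-fold lower, counting interval 36.8 to 1425). The lower calls of slit2 and ntn1b rested on library 2, since progenitor-like cells of library 1 had no UMI of either gene. Of the 21 higher genes the same 7 as against fibroblast-like cells would not have passed the filter on low counts without the neurons. Of the 27 lower genes 10 would not have passed it without the progenitor-like cells (efna5a, epha2a, ephb4b, plxnb1b, robo4, sema3fb, sema3ga, sema4e, sema5ba and unc5b). All of these had to be high there to be tested.

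**Figure D5:**
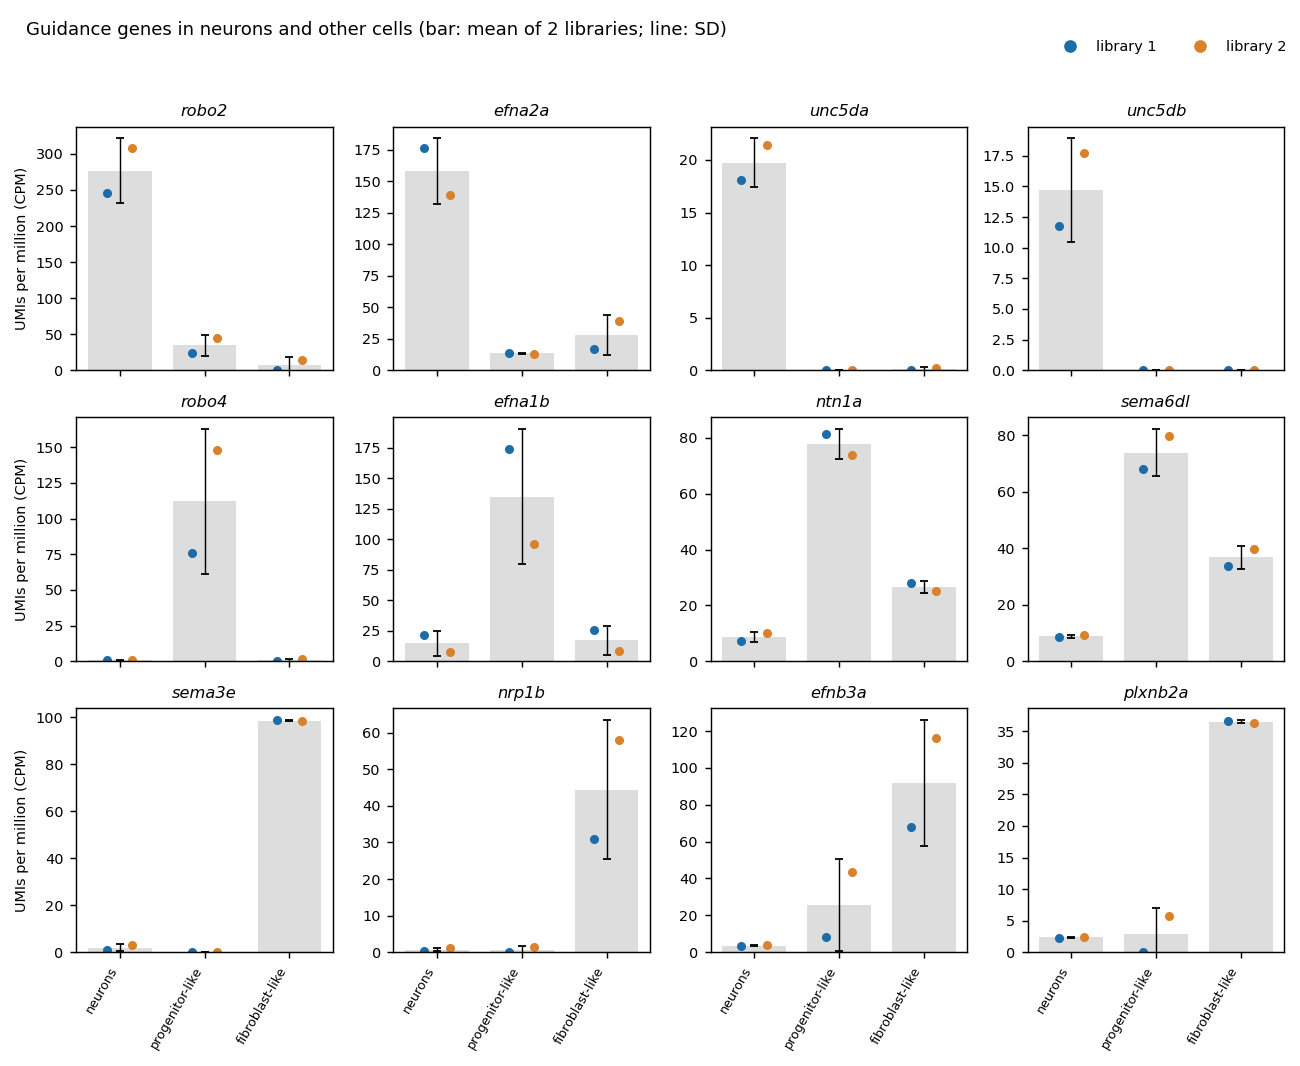
CPM (vertical) of 12 guidance genes in neurons, progenitor-like cells and fibroblast-like cells (horizontal), with bars for the mean of 2 libraries, lines for the SD and points for each library. Neurons stand highest for robo2 (245 and 309 CPM), efna2a, unc5da and unc5db, progenitor-like cells for robo4, efna1b, ntn1a and sema6dl, and fibroblast-like cells for sema3e, nrp1b, efnb3a and plxnb2a.

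The comparisons with fibroblast-like and progenitor-like cells share the neuron sums and are given side by side. In both, 16 of 77 guidance genes were higher in neurons and 16 lower. The 16 higher include efna3a, epha6, sema4gb, slit1b, unc5a, unc5da and unc5db, which passed the filter on low counts only through the neurons. The 16 lower include efna2b, ntn1b and slit2, which passed it only through the fibroblast-like cells. They also include epha2a, ephb4b, plxnb1b, sema3fb and unc5b, which passed it only through the progenitor-like cells. Genes called in both were not counted over all genes, so no background stands beside these counts. The shares for each comparison alone are not such a background. Singly, 37.1% of all genes were higher and 31.5% lower than in fibroblast-like cells. Against progenitor-like cells the shares were 28.1% and 21.1%. The genes efna3b, plxnb3 and sema3gb were higher in neurons than in fibroblast-like cells and lower than in progenitor-like cells, and sema3aa and slit3 the reverse. The genes epha7, ephb2b, ephb3a, plxna2 and slit1a were called in neither. Since slit3 was at 829 and 1312 CPM in motoneuron-like cells and at 4.99 to 40.5 CPM in the hmx and evx groups, its level over all neurons (15.4 and 54.5 CPM) averages over unlike groups.

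Genes of the same pathways outside the guidance families were counted from lists. Between hmx and evx groups, 4 of 14 other guidance genes tested were higher and 1 lower, 1 of 11 axonal adhesion genes higher and 2 lower, and 4 of 28 growth cone signalling genes higher and 3 lower, against 10.7% higher and 9.05% lower over all genes. On the log2 scale rgma (1.62 ± 0.27) and lingo1a (1.29 ± 0.20) were higher and gap43 (-0.68 ± 0.11) and alcama (-1.23 ± 0.29) lower. In motoneuron-like cells 4 of 11 adhesion genes were higher and 0 lower, against 4% and 2.89% over all genes, among them alcama (5.30 ± 0.20) and alcamb (6.73 ± 0.36). Between neurons and fibroblast-like cells 9 of 11 adhesion genes were higher and 1 lower, with a median of 6.81 against 0.25 over all genes, while of the 21 other guidance genes 7 were higher and 10 lower (median -0.47). The shares over all genes were 37.1% higher and 31.5% lower. Against progenitor-like cells 6 of 11 adhesion genes were higher and 3 lower, and 7 of 21 other guidance genes were higher and 7 lower, against 28.1% higher and 21.1% lower over all genes.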

How the data were processed

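The authors counted UMIs per gene and cell with Cell Ranger 4.0.0 from 10x 3′ v3.1 libraries of methanol-fixed sorted cells, using the Lawson Lab transcriptome annotation V4.3.2, and deposited raw counts for 2 libraries (18908819 and 34071583 UMIs). The genome build is not given in the sources used here. Another pair of libraries was left out by the study because of notochord cells and is not analysed here. Per the study's filters, cells with more than 12000 UMIs, fewer than 500 or more than 2500 genes, or more than 6% mitochondrial UMIs were dropped. No doublet caller was run. The libraries shared 3 barcodes.

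Neurons needed UMIs of at least 4 of 6 neuron markers and at most 2 fibroblast and 2 progenitor markers, fibroblast-like cells at least 5 of 9 fibroblast markers and progenitor-like cells at least 4 of 9 progenitor markers. In libraries 1 and 2, 186 and 172 cells lay 1 neuron marker short and 298 and 262 lay at the minimum. These thresholds were set after marker values were seen, and the members, lists and tests were chosen with earlier results of these data known. Since a marker at 0 UMIs can be a missed RNA, the groups are classes of marker UMIs, rebuilt here and not the study's clusters.

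Counts were summed per library and group. Cells are not replicates, so n is 2 libraries. edgeR 4.0.16 (R 4.3.3) fitted its quasi-likelihood test with TMM scaling, filterByExpr and the library as a block to 12 sums of the 6 neuron groups and, apart, to 6 sums of neurons, progenitor-like and fibroblast-like cells. Tests were two-sided, p-values were adjusted by Benjamini-Hochberg over all genes tested with a threshold of 0.05, and the SE was taken from the fold change and its F value. The scripts were tested on simulated data. A fold against a group at 0 UMIs is a lower bound against 3 counts over the group, and ratios of 1 to 3 counts have exact 95% intervals, both covering counting error only. Differences within a library used a prior count of 2. Every group occurs in both libraries, which is where the pairing comes from. Genes were named where they passed the test with the same sign in both libraries, up to 12 per comparison by size of change, with the most abundant gene of each family and ohnologues of named genes, and calls that rest on library 2 alone are marked as such. Other called genes and the parts of the other-fate group were named after their values were seen. Alternatives were DESeq2 1.42.0, total UMIs for scaling, no filter, no replicate block, each library alone, other cell filters, markers read at 2000 UMIs per cell and 1 UMI more per marker. Leaving out hmx cells with an en1b UMI and counting COX3 as mitochondrial were chosen after seeing the data. The study's own count of cells per cluster was not compared.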

Additional observations from a re-analysis of the deposited data

Results flagged for a closer look

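For 9 guidance genes the hmx over evx difference in the slc6a1b and skor2 pair differed from that in the glycinergic and skor2-negative pair by the interaction test. The differences of the log2 fold changes were 2.15 for plxnb3, 1.80 for efnb3b, -0.935 for robo2, -1.34 for efna2a, -1.84 for efna5b, -2.01 for plxna2, -2.15 for plxna1a, -2.92 for plxna4 and -3.97 for slit1b. The call was lost under 1 alternative for slit1b and plxna4, 3 for robo2 and 5 for efna5b, and held under every alternative with a test for plxnb3, efnb3b, efna2a, plxna2 and plxna1a.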

How the results depend on the processing

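Counts of guidance genes called, which fell by more than 1.5 times, were as follows. For the inhibitory hmx groups vs excitatory evx groups the 19 calls became 10 with no replicate block, 12 with markers read at 2000 UMIs per cell and 8 with 1 UMI more for each marker. For the hmx slc6a1b group vs skor2 evx group the 19 became 12 with 1 UMI more for each marker. For the hmx glycinergic group vs skor2-negative evx group the 14 became 8 with DESeq2, 7 with no replicate block, 6 with markers read at 2000 UMIs and 6 with 1 UMI more. For the skor2 evx group vs skor2-negative evx group the 14 became 9 with DESeq2, 7 with no replicate block, 9 with no upper limits on UMIs and genes per cell and 7 with 1 UMI more. For the other-fate inhibitory vs hmx inhibitory groups the 16 became 9 with DESeq2, 8 with no replicate block and 8 with 1 UMI more. The cause was not tested, though the marker alternatives leave fewer cells.

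The counts for the difference between the subsets, for motoneuron-like vs interneuron groups and for neurons vs both other cell types stayed within 1.5 times under every alternative run. Of 105 named results, 27 lost their call with no replicate block, 21 with DESeq2, 21 of 100 with markers read at 2000 UMIs, 21 of 97 with 1 UMI more, 11 with no upper limits, 4 of 78 without en1b cells, 4 of 104 with COX3 counted, 1 with 10% mitochondrial UMIs, 1 with no filter and 0 with total UMIs. The one reversal was efna3b: hmx glycinergic group vs skor2-negative evx group, at -0.017 with 1 UMI more per marker against 1.30. Values of each library alone were differences of log2 CPM with a prior count of 2. They were not refits and have no test. For 49 of the 105 results the value of library 2 alone lay further from the fitted one than the SD of the library values. For library 1 alone 76 did. The prior count makes differences of genes with few UMIs smaller than the fitted ones, so these counts do not measure dependence on a library alone. The sign of these values could not turn, since genes were named for the same sign in both libraries. The share of higher calls among all genes was 70.3% with DESeq2 against 58.1% in the motoneuron-like comparison, and 33.3% with no replicate block against 44.3% for the difference between subsets. Low depth, chiefly the 49445 UMIs of motoneuron-like cells in library 1, limits genes at a few UMIs.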
